A study of Mus musculus with 48 samples.

Results

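The proteasome genes described here were the 50 genes whose symbol begins with Psm, followed by a letter from a to g and a digit, and that were listed in both bulk RNA count tables, pseudogene names left out. They were 50 of 52636 genes in the table of invariant natural killer T (iNKT) cells and of 35661 genes in the table of donor T cells. Of these, 8 were alpha ring genes (Psma1 to Psma8), 7 were constitutive beta ring genes (Psmb1 to Psmb7), and 5 were the immunoproteasome and PA28 genes Psmb8, Psmb9, Psmb10, Psme1 and Psme2. A further 6 were ATPases (Psmc1 to Psmc6) and 14 were non-ATPase genes (Psmd1 to Psmd14) of the regulatory particle. The others were the regulators Psme3, Psme4 and Psmf1, the assembly chaperones Psmg1 to Psmg4, the thymic epithelial subunit gene Psmb11, the Psme2 retrocopy Psme2b, and Psmc3ip. Psmc3ip encodes a meiotic recombination protein and matched by its symbol alone, so that 48 of the 50, without it and Psme2b, encode subunits, regulators or chaperones.

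All cells came from FVB/N mice. Conventional CD8 and CD4 T cells of FVB donors were measured by bulk RNA-seq in 5 groups of 3 libraries per lineage. In 4 groups they were recovered from spleen and peripheral lymph nodes 7 days after transfer into major-mismatched BALB/c hosts, a model of graft-versus-host disease: hosts given iNKT1, iNKT2 or iNKT17 cells as well, and hosts given no iNKT cells (untreated). The fifth group was taken before transplantation (day 0). Thymic iNKT17, iNKT2 and iNKT1 cells, sorted sublineages of a T cell type that recognises lipids, had 2 bulk RNA and 2 ATAC-seq (open chromatin) libraries each, and total thymic iNKT cells of 2 mice aged 8 weeks were profiled as single cells. Separate animals are not stated for bulk replicates in the labels, and the spread behind each p-value is that between libraries, which may be technical.

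The proteasome degrades proteins tagged with ubiquitin. Its core is a barrel of alpha and beta rings, and the regulatory particle that caps it binds, unfolds and feeds in substrates. The proteolytic sites lie on the beta subunits encoded by Psmb5, Psmb6 and Psmb7. In lymphocytes and in cells exposed to interferon gamma these are largely replaced by the products of Psmb8, Psmb9 and Psmb10, which form the immunoproteasome and favour peptides that fit MHC class I. The activator PA28, encoded by Psme1 and Psme2, opens the core without ubiquitin.

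Promoter windows of 5 members are shown because the results turn on these genes. Psmd13 and Psma4 were among the members with the smallest p-values at day 7, Psmb5 and Psmb8 encode the constitutive and the immunoproteasome form of one catalytic position, and Psme1 was the member with the fold change nearest to 0 in CD8 cells. Each window runs from 250 bases before to 50 bases after the annotated gene start, from RefSeq on GRCm38.p6, and 42 of the 50 members had at least 1, with 45 windows in all. The windows are chr7:140882144-140882443 (plus strand) for Psmd13, chr9:54950609-54950908 (plus strand) for Psma4, chr14:54617946-54618245 (minus strand) for Psmb5, chr17:34197945-34198244 (plus strand) for Psmb8 and chr14:55578244-55578543 (plus strand) for Psme1. Capitals mark 1 motif in each, found on either strand: an ETS site in Psmd13, a nuclear respiratory factor site in Psma4, an antioxidant response element core in Psmb5, a STAT (GAS) site in Psmb8 and an interferon-stimulated response element core in Psme1.
Psmd13: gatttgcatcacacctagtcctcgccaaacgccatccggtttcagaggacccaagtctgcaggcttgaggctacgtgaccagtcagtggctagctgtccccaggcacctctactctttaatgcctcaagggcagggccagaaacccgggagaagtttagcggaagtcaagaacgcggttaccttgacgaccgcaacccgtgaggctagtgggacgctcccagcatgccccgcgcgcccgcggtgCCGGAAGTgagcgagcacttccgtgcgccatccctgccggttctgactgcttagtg
Psma4: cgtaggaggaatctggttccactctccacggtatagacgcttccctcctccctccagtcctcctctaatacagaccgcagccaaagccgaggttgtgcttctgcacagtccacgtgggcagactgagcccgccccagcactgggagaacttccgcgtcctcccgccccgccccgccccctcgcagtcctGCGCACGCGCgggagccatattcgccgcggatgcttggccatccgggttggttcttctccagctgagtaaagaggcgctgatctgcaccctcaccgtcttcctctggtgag
Psmb5: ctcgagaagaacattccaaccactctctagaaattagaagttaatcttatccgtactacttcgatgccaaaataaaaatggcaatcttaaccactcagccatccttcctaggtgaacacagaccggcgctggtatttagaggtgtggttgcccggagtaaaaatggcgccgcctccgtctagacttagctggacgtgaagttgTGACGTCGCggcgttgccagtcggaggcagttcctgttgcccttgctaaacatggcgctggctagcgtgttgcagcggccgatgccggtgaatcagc
Psmb8: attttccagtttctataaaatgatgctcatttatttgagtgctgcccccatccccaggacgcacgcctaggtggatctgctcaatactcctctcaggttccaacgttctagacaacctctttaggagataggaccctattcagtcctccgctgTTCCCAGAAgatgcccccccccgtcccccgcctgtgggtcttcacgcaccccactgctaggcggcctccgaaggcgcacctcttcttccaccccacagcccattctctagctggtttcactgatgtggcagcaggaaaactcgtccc
Psme1: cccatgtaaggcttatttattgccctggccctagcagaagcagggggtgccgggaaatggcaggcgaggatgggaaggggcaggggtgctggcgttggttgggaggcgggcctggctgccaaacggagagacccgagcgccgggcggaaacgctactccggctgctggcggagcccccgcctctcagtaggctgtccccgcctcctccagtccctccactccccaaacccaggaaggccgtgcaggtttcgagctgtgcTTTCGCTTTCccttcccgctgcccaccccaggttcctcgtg

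The ETS motif CCGGAAGT was found at 9 members (Psma6, Psmc1, Psmc2, Psmd12, Psmd13, Psmd6, Psme3, Psme4 and Psmg3) and in 22.2% of the 45 member windows, against 3.89% of all 32851 windows of this length. The nuclear respiratory factor motif, searched as GCGCA, any letter and GCGC, was found at 7 members (Psma2, Psma3, Psma4, Psmc4, Psmc5, Psmd14 and Psmg1) and in 15.6% of member windows, against 4.6% of all. The interferon-stimulated response element core, searched as GAAA, any 2 letters and GAAA, was found at Psmb3, Psmd4, Psmd9, Psme1 and Psmg4 (11.1% of member windows, against 3.44% of all). The STAT motif TTCNNNGAA was found at Psmb8, Psmd2 and Psmg1 (6.67%, against 8.3%), and the antioxidant response element core TGACNNNGC at Psmb5, Psmb6, Psmc6, Psmd12, Psmd9 and Psme4 (13.3%, against 12.4%). Both strands were searched, and no matches of different motifs overlapped within a member. A match describes the letters of the window and is not a measured binding site.

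Library totals ran from 26134241 to 33658426 counts in CD8 cells, from 25323879 to 37055182 in CD4 cells, from 26811373 to 33688697 in iNKT RNA and from 13299586 to 42964216 in ATAC regions. Levels are given in CPM (counts-per-million values, scaled between libraries by TMM), which are not corrected for gene length and are compared between samples only. Summed erythroid, B and plasma cell, myeloid and immature thymocyte markers were higher in the libraries taken at day 0. Summed thymic epithelial markers were higher at day 7, where day 7 in this paragraph stands for untreated hosts. The summed level of 6 erythroid markers was 0.708 to 12.2 CPM at day 7 and 570.0 to 751 CPM at day 0 in CD8 cells, and 2.94 to 9.05 CPM at day 7 and 3120.0 to 9335 CPM at day 0 in CD4 cells. That of 4 B and plasma cell markers was 0.769 to 1.21 CPM at day 7 and 114 to 447 CPM at day 0 in CD8 cells, and 1.62 to 3.39 CPM at day 7 and 288 to 348 CPM at day 0 in CD4 cells. That of 5 myeloid markers was 121 to 145 CPM at day 7 and 461 to 1540.0 CPM at day 0 in CD8 cells, and 95.2 to 158 CPM at day 7 and 752 to 839 CPM at day 0 in CD4 cells. That of 4 immature thymocyte markers was 0.248 to 0.385 CPM at day 7 and 5.43 to 6.20 CPM at day 0 in CD8 cells, and 0.143 to 0.212 CPM at day 7 and 3.29 to 5.02 CPM at day 0 in CD4 cells. That of 5 thymic epithelial markers, Psmb11 among them, was 8.92 to 12.2 CPM at day 7 and 1.498 to 1.92 CPM at day 0 in CD8 cells, and 5.46 to 9.02 CPM at day 7 and 2.25 to 3.28 CPM at day 0 in CD4 cells. The markers of this list differed in direction in CD8 cells. Psmb11 was lower at day 7 (0.10, 0.34 and 0.15 CPM, against 0.83, 0.59 and 0.96 CPM). Krt8 was at 0 in every CD8 library at day 7 and was detected at day 0, and Epcam was at 0 in every CD8 library of both days. At day 7 the sum in CD8 cells was that of Psmb11, Foxn1 and Prss16. The summed level of 5 T cell markers was 2699 to 2808 CPM at day 7 and 3926 to 3954 CPM at day 0 in CD8 cells, and 2194 to 2596 CPM at day 7 and 1709 to 2206 CPM at day 0 in CD4 cells. Mki67, a marker of dividing cells, was at 91.1 to 208 CPM at day 7 and 1.99 to 8.31 CPM at day 0 in CD8 cells, and at 50.9 to 103 CPM at day 7 and 2.95 to 8.24 CPM at day 0 in CD4 cells. The part of these differences in the day 7 results was not tested. The CD4 day 0 library numbered 3 stood apart: its levels correlated with those of the other 2 at a Spearman's rho of 0.949 to 0.952 across genes, against 0.972 to 0.993 for every other pair of libraries of a donor T cell group. Its erythroid markers summed to 9335 CPM, against 5942 and 3120 CPM in libraries 1 and 2, and its T cell markers to 1709 CPM, against 2206.5 and 2198.5 CPM. Its B and plasma cell markers summed to 288 CPM, against 348 and 337 CPM, and its myeloid markers to 822 CPM, against 839 and 752 CPM. The titles of the CD4 day 0 samples name different experiments, and no label says which of them library 3 came from. Whether fits without library 3 leave an experiment out of that group is therefore not known.

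Donor CD8 T cells recovered at day 7 from untreated hosts were compared with CD8 T cells before transfer. Proteasome genes were higher at day 7 almost throughout: of 49 tested members, 41 rose and 2 fell (edgeR quasi-likelihood test, Benjamini-Hochberg adjusted p under 0.05). Psma8, a testis form of an alpha subunit, did not pass the low-count filter. Of all 14586 genes tested, 30.9% were called higher and 29.8% lower. The members' median log2 fold change was 0.75, beside -0.05 over all genes tested. The summed level of all members was 12754, 10431 and 10493 CPM at day 7 and 6156, 7095 and 6129.9 CPM at day 0. In bulk samples, fewer cells of a type and less RNA per cell cannot be told apart.

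**Figure D1:**
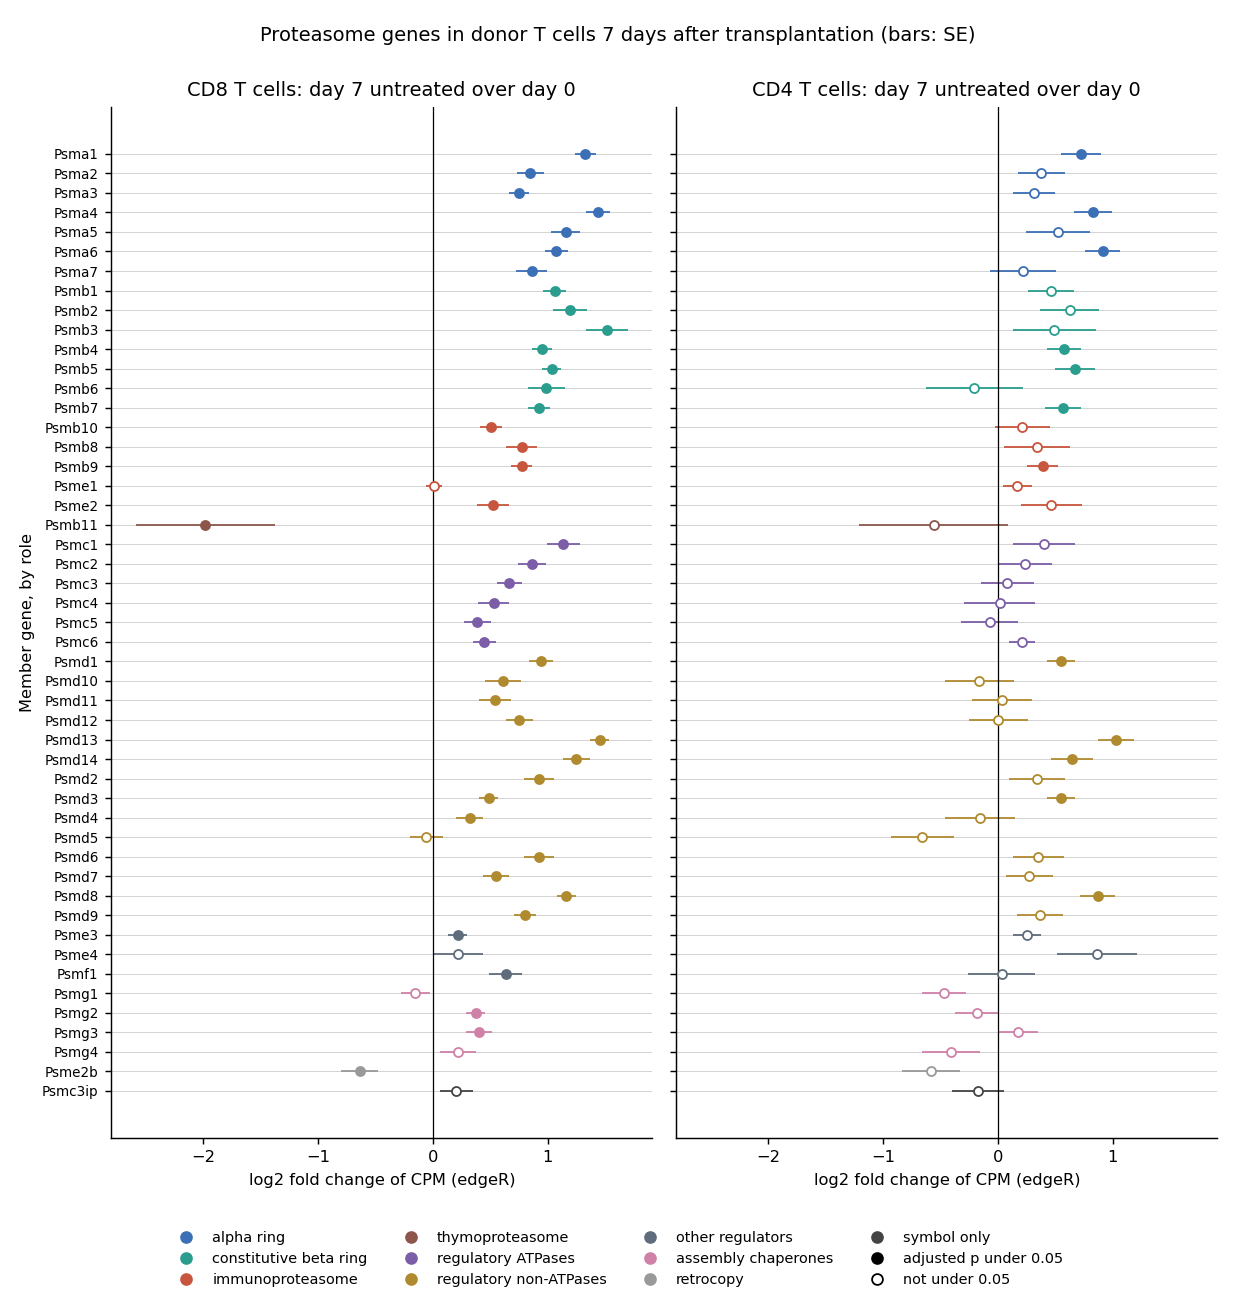
Log2 fold change of expression, day 7 untreated over day 0, for the 49 tested members by role, in CD8 T cells (left) and CD4 T cells (right). Points are edgeR estimates from 3 libraries per group, bars are SE, and filled points passed an adjusted p of 0.05, which 43 members did in CD8 cells and 12 in CD4 cells.

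All 7 tested alpha ring genes, whose products form the gate of the core, rose in CD8 cells (median log2 fold change 1.07, range 0.75 to 1.44). Psma4 was at 321, 272 and 249 CPM at day 7 and 105, 103 and 103 CPM at day 0 (log2 fold change 1.44, SE 0.10, adjusted p = 1.86e-08 by edgeR). Psma1 was at 383, 344 and 311 CPM at day 7 and 133, 143 and 138 CPM at day 0 (1.32, SE 0.09, adjusted p = 1.03e-08). Psma6 was at 311, 276 and 254 CPM at day 7 and 128, 141 and 130.1 CPM at day 0 (1.07, SE 0.10, adjusted p = 2.06e-07). For each of these 3 genes the lowest day 7 library lay above the highest day 0 library.

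All 7 constitutive beta ring genes rose as well (median 1.03, range 0.93 to 1.51). Psmb5, the chymotrypsin-like subunit, was at 110.2, 104 and 100.3 CPM at day 7 and 50.6, 52.7 and 50.6 CPM at day 0 (log2 fold change 1.03, SE 0.08, adjusted p = 6.69e-08 by edgeR). Psmb6, the caspase-like subunit, was at 408, 285 and 308 CPM at day 7 and 160.3, 192 and 152 CPM at day 0 (0.99, SE 0.16, adjusted p = 7.12e-05). Psmb7, the trypsin-like subunit, was at 106, 120.3 and 98.9 CPM at day 7 and 55.2, 56.5 and 59.6 CPM at day 0 (0.93, SE 0.10, adjusted p = 9.85e-07). Day 7 and day 0 libraries did not overlap for any of the catalytic subunits. The highest fold change of any member was that of Psmb3, a structural beta subunit, at 602, 402 and 426 CPM at day 7 and 146, 205 and 149.7 CPM at day 0 (1.51, SE 0.18, adjusted p = 4.85e-06).

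Of the 5 immunoproteasome and PA28 genes, 4 rose (median 0.52, range 0.01 to 0.77). Psmb8 was at 799, 600.4 and 632 CPM at day 7 and 374, 462 and 353 CPM at day 0 (log2 fold change 0.77, SE 0.13, adjusted p = 1.34e-04 by edgeR). Psmb9 was at 295, 284 and 267 CPM at day 7 and 164, 185 and 147 CPM at day 0 (0.77, SE 0.09, adjusted p = 3.87e-06). Psmb10 was at 269.9, 230.02 and 241 CPM at day 7 and 169, 187 and 165 CPM at day 0 (0.51, SE 0.09, adjusted p = 2.80e-04). All day 7 libraries lay above all day 0 libraries for these 3 catalytic genes. Of the PA28 genes, Psme2 was at 602, 442 and 438 CPM at day 7 and 319, 405 and 305 CPM at day 0 (0.52, SE 0.14, adjusted p = 0.00471). Psme1, whose product joins that of Psme2 in the PA28 ring, was at 272, 275 and 259.8 CPM at day 7 and 265, 276 and 259 CPM at day 0 (0.01, SE 0.07, adjusted p = 0.892), and its groups overlapped. Whether the 2 PA28 genes differ in their change was not tested.

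**Figure D2:**
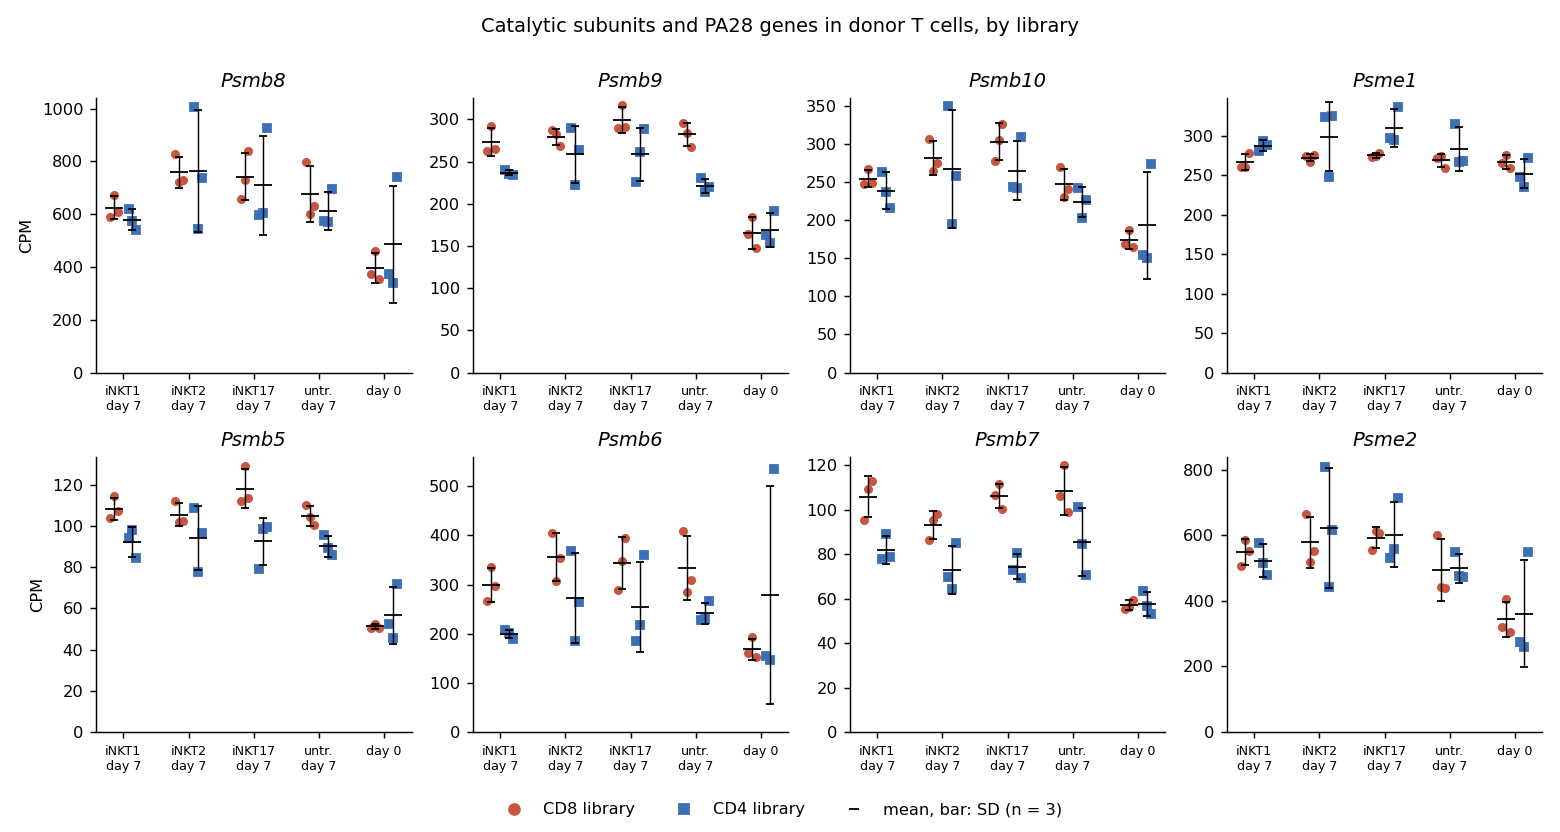
CPM of Psmb8, Psmb9, Psmb10 and Psme1 (top) and of Psmb5, Psmb6, Psmb7 and Psme2 (bottom) in every donor CD8 (circles) and CD4 (squares) library, with mean and SD (n = 3). The CD4 day 0 library at 535 CPM of Psmb6 lies far above the other 2, at 155 and 147 CPM.

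The balance of the catalytic forms was also described as the log2 ratio of the summed CPM of Psmb8, Psmb9 and Psmb10 over that of Psmb5, Psmb6 and Psmb7. It was 1.13, 1.13 and 1.17 at day 7 and 1.41, 1.47 and 1.34 at day 0 in CD8 cells. Every day 7 library was below every day 0 library. CPM are not corrected for gene length, so the size of this ratio is not a ratio of molecules, and it was not tested. By pair, it was 2.86, 2.53 and 2.65 at day 7 and 2.89, 3.13 and 2.80 at day 0 for Psmb8 over Psmb5. For Psmb9 over Psmb6 it was -0.47, -0.01 and -0.20 at day 7 and 0.03, -0.06 and -0.05 at day 0. For Psmb10 over Psmb7 it was 1.35, 0.94 and 1.28 at day 7 and 1.61, 1.73 and 1.47 at day 0. The days overlapped for the pairs of Psmb8 and Psmb9 and not for that of Psmb10.

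In the regulatory particle all 6 ATPase genes rose (median 0.60, range 0.39 to 1.14), and 13 of 14 non-ATPase genes rose (median 0.78, range -0.06 to 1.45). Psmd13, a lid subunit, had the smallest p of any member: it was at 289, 281 and 250.4 CPM at day 7 and 96.5, 103 and 100.4 CPM at day 0 (log2 fold change 1.45, SE 0.08, adjusted p = 9.61e-10 by edgeR). Psmd8, another lid subunit, was at 342, 308 and 296 CPM at day 7 and 137, 151 and 135 CPM at day 0 (1.16, SE 0.08, adjusted p = 1.59e-08). Neither gene had overlapping groups. Psmd14, the deubiquitinase of the lid, rose by 1.25 (SE 0.12, adjusted p = 3.80e-07) and the ATPase gene Psmc1 by 1.14 (SE 0.14, adjusted p = 7.00e-06) on the log2 scale. The non-ATPase gene that was not called was Psmd5, which encodes a chaperone of base assembly that is absent from the mature particle. It was at 149, 107 and 123 CPM at day 7 and 128, 145 and 122 CPM at day 0 (-0.06, SE 0.14, adjusted p = 0.742), with overlapping groups. Psmb3, Psmd14, Psmc1 and Psmd5 were singled out after their values were seen.

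Among the other regulators, Psmf1, which encodes the proteasome inhibitor PI31, rose by 0.63 (SE 0.14, adjusted p = 0.00127) and Psme3, which encodes the nuclear activator PA28 gamma, by 0.21 (SE 0.08, adjusted p = 0.039) by edgeR. Psme4, which encodes the activator PA200, had a log2 fold change of 0.22 (SE 0.21, adjusted p = 0.387). Of the chaperones of alpha ring assembly, Psmg2 rose by 0.37 (SE 0.08, adjusted p = 0.00138) and Psmg3 by 0.40 (SE 0.11, adjusted p = 0.00562). Psmg1 (-0.15, SE 0.13, adjusted p = 0.302) and Psmg4 (0.22, SE 0.15, adjusted p = 0.233) were not called.

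The members that fell were Psmb11 and Psme2b. Psmb11, the catalytic subunit of thymic cortical epithelium, was close to 0: 0.10, 0.34 and 0.15 CPM at day 7 and 0.83, 0.59 and 0.96 CPM at day 0 (log2 fold change -1.98, SE 0.61, adjusted p = 0.0107 by edgeR). Without day 7 library 1 it was not called (log2 fold change -1.64, adjusted p = 0.0579). Psme2b, an intronless copy of Psme2, was at 40.4, 29.2 and 28.4 CPM at day 7 and 49.6, 54.7 and 48.2 CPM at day 0 (-0.64, SE 0.16, adjusted p = 0.00363). How reads shared by Psme2 and Psme2b were counted is not given in the sources used here, so the split between the copies is uncertain. Psmc3ip was not called (0.20, SE 0.14, adjusted p = 0.233).

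Companion lists gave counts in both directions, beside 30.9% higher and 29.8% lower of all 14586 genes tested in CD8 cells. Of 20 tested genes of proteasome regulation and ubiquitin supply, 8 rose and 5 fell in CD8 cells, with a median log2 fold change of 0.11. Pomp, which encodes the chaperone that completes the core, rose by 1.26 (SE 0.16, adjusted p = 7.32e-06), Shfm1, a small lid subunit gene, by 0.80 (SE 0.11, adjusted p = 1.47e-05) and the deubiquitinase gene Usp14 by 0.47 (SE 0.08, adjusted p = 8.00e-05) by edgeR, while the transcription factor gene Nfe2l2 fell by 0.92 (SE 0.14, adjusted p = 5.03e-05). Of 14 genes of antigen processing and presentation, 5 rose and 1 fell (median 0.15). Tap1, whose product carries peptides into the endoplasmic reticulum, rose by 0.79 (SE 0.10, adjusted p = 1.07e-05), the peptide loading gene Pdia3 by 0.75 (SE 0.12, adjusted p = 7.25e-05) and the peptide trimming gene Erap1 by 0.55 (SE 0.12, adjusted p = 9.78e-04), and the transcription factor gene Irf1 fell by 0.52 (SE 0.10, adjusted p = 2.69e-04).

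In donor CD4 T cells the same comparison called 12 of 49 members higher at day 7 and none lower by edgeR. Of all 15031 genes tested, 17.4% were called higher and 18.2% lower. The members' median log2 fold change was 0.31, beside -0.08 over all genes. The summed member level was 9677, 9474 and 9828 CPM at day 7 and 6185, 5967 and 11026 CPM at day 0, so that day 0 library 3, the library that stood apart, lay above the day 7 libraries and the other 2 lay below them. Without it 29 members rose and 1, Psme2b, fell (-0.81, SE 0.21, adjusted p = 0.00902). The shares of all genes above are those of the fit with all libraries, and the share without that library is not given here.

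With all libraries, Psmd13 was at 225, 227 and 198 CPM at day 7 and 92.6, 94.8 and 131 CPM at day 0 in CD4 cells (log2 fold change 1.03, SE 0.15, adjusted p = 1.34e-04 by edgeR). Psma6 was at 284, 284 and 249 CPM at day 7 and 129, 119.6 and 184 CPM at day 0 (0.91, SE 0.15, adjusted p = 3.29e-04). Psmb5 was at 95.7, 89.2 and 85.7 CPM at day 7 and 52.2, 45.6 and 72.1 CPM at day 0 (0.67, SE 0.18, adjusted p = 0.00884). All day 7 libraries lay above all day 0 libraries for these genes. The lid gene Psmd8 rose by 0.87 (SE 0.15, adjusted p = 4.88e-04), Psma4 by 0.82 (SE 0.17, adjusted p = 0.00146), the lid gene Psmd3 by 0.55 (SE 0.12, adjusted p = 0.00249) and the base gene Psmd1 by 0.55 (SE 0.12, adjusted p = 0.00285). Psmb7 rose by 0.57 (SE 0.15, adjusted p = 0.0107) and was not called when only the compared groups were fitted (adjusted p = 0.059). Psmb9 was at 230.3, 214 and 219.7 CPM at day 7 and 163, 153 and 192 CPM at day 0 (0.39, SE 0.13, adjusted p = 0.0338). Its call was lost on leaving out day 0 library 1 or 2 or any day 7 library (log2 fold change 0.35 to 0.43, adjusted p 0.0512 to 0.0942), with no low-count filter (0.40, adjusted p = 0.0693) and with only the compared groups (0.41, adjusted p = 0.0878).

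By role, 3 of 7 alpha ring, 3 of 7 beta ring, 1 of 5 immunoproteasome and PA28, 0 of 6 ATPase, 5 of 14 non-ATPase and 0 of 4 chaperone genes rose in CD4 cells. Without day 0 library 3 these counts were 7, 6, 4, 2, 9 and 0, with the share of all genes in that fit not given here. Psmb8 was at 575, 569 and 696 CPM at day 7 and 373, 341 and 741 CPM at day 0 (log2 fold change 0.34, SE 0.29, adjusted p = 0.392 by edgeR, and 0.79, SE 0.24, adjusted p = 0.018 without the library). Psmb10 was at 242, 203 and 226 CPM at day 7 and 155, 151 and 274 CPM at day 0 (0.21, SE 0.24, adjusted p = 0.527, and 0.56, SE 0.20, adjusted p = 0.0421 without it). Psmb6 was at 228, 230.5 and 266 CPM at day 7 and 155, 147 and 535 CPM at day 0 (-0.21, SE 0.42, adjusted p = 0.742, and 0.69, SE 0.28, adjusted p = 0.0641 without it). In each of these 3 genes day 0 library 3 was the highest of the 6. Psme2 was at 548, 474 and 474 CPM at day 7 and 275, 259 and 549 CPM at day 0 (0.47, SE 0.27, adjusted p = 0.199, and 0.91, SE 0.21, adjusted p = 0.0039 without it). Psme1 was not called either way (0.17, SE 0.13, adjusted p = 0.336, and 0.23, SE 0.13, adjusted p = 0.18).

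The catalytic log2 ratio in CD4 cells was 1.30, 1.29 and 1.43 at day 7 and 1.35, 1.37 and 0.87 at day 0, with overlapping groups. Of 14 antigen processing genes, 6 rose and none fell, among them Tap1 by 1.12 (SE 0.13, adjusted p = 1.56e-05), Erap1 by 0.70 (SE 0.11, adjusted p = 3.04e-04), Tapbp, a peptide loading gene, by 0.87 (SE 0.17, adjusted p = 0.00119) and the transporter gene Tap2 by 0.49 (SE 0.13, adjusted p = 0.00999) by edgeR. Of 20 regulation and ubiquitin genes, 3 rose and 3 fell. Both counts stand beside 17.4% higher and 18.2% lower of all 15031 genes tested in CD4 cells. The ubiquitin activating enzyme gene Uba1 rose by 0.72 (SE 0.14, adjusted p = 0.00136), while Nfe2l2 fell by 1.37 (SE 0.17, adjusted p = 2.44e-05) and the ubiquitin shuttle gene Ubqln2 by 1.04 (SE 0.23, adjusted p = 0.00299).

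**Figure D3:**
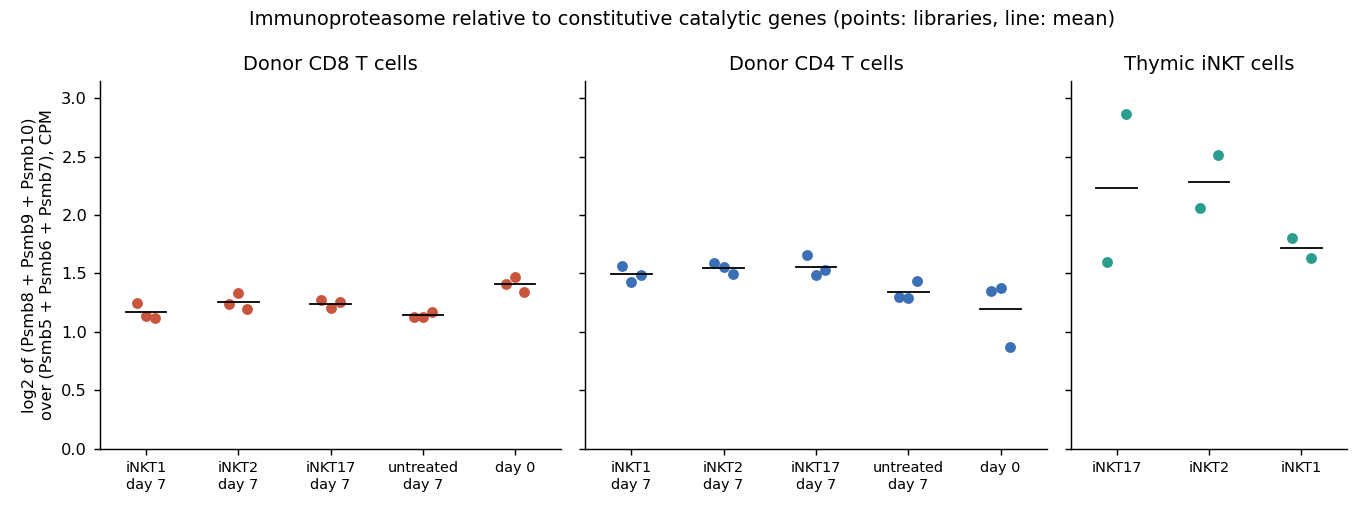
Log2 ratio of the summed CPM of Psmb8, Psmb9 and Psmb10 over that of Psmb5, Psmb6 and Psmb7 in each library of donor CD8 T cells, donor CD4 T cells and sorted thymic iNKT cells. Points are libraries and lines are means (n = 3 in donor groups, n = 2 in iNKT groups). Untreated CD8 cells at day 7 lie below the day 0 libraries.

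Whether the day 7 change differed between CD8 and CD4 cells was tested as an interaction over all 30 donor libraries. The sample titles pair CD4 with CD8 libraries and name experiments. The columns run in the titles' order of lineage, day and treatment, but no label ties a column to a title. Pairs and experiments were therefore not fitted, and the fit treats all libraries as independent. No member was called by edgeR, with 16 of 49 members at an unadjusted p under 0.05, while 8.78% of all 15601 genes were called. At that unadjusted p there were 3780 of all genes. The members' median difference of log2 fold changes, CD8 minus CD4, was 0.43, beside -0.01 over all genes, and 0.13 without CD4 day 0 library 3. The smallest p-values were those of Psma4 (difference 0.59, SE 0.20, adjusted p = 0.0611, and 0.35, SE 0.16, adjusted p = 0.234 without CD4 day 0 library 3) and Psma1 (0.58, SE 0.20, adjusted p = 0.0674, and 0.30, SE 0.14, adjusted p = 0.263 without it). DESeq2 called 2 members, Psma4 and Psma1. Leaving out CD4 day 0 library 1, CD4 day 0 library 2 or CD8 day 7 library 3 of the untreated group, edgeR called 5, 8 and 1 members. The shares of all genes called by DESeq2 and in these fits are not given here. Among the immunoproteasome genes the difference was 0.41, SE 0.33, adjusted p = 0.471 for Psmb8, 0.36, SE 0.16, adjusted p = 0.161 for Psmb9 and 0.27, SE 0.27, adjusted p = 0.563 for Psmb10. It was 0.34, SE 0.20, adjusted p = 0.298 for Psmb5, 1.17, SE 0.48, adjusted p = 0.131 for Psmb6 and 0.33, SE 0.17, adjusted p = 0.241 for Psmb7. For the PA28 genes it was -0.18, SE 0.14, adjusted p = 0.433 for Psme1 and 0.04, SE 0.32, adjusted p = 0.97 for Psme2. Without CD4 day 0 library 3 the differences were -0.04 for Psmb8, 0.26 for Psmb9, -0.07 for Psmb10, 0.12 for Psmb5, 0.28 for Psmb6, 0.39 for Psmb7, -0.24 for Psme1 and -0.40 for Psme2, so that those of Psmb8, Psmb10 and Psme2 turned in sign. Among companion genes Irf1 had a called difference (-0.83, SE 0.19, adjusted p = 0.00587).

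Before transfer, no member was called between CD8 and CD4 cells by edgeR or DESeq2, while 8.59% of all genes were called by edgeR. At an unadjusted p under 0.05 by edgeR there were 3248 of all 15601 genes and 1 of 49 members. The smallest p was that of Psmd5, at 128, 145 and 122 CPM in CD8 cells and 144, 141 and 292 CPM in CD4 cells (log2 fold change -0.47, SE 0.23, adjusted p = 0.239), where CD4 library 3 was the highest. Without that library it was -0.04, SE 0.20, adjusted p = 0.967. Psmd4, a ubiquitin receptor gene, came next (-0.48, SE 0.24, adjusted p = 0.255, and 0.10, SE 0.17, adjusted p = 0.88 without it). The log2 fold change, CD8 over CD4, was -0.22 (SE 0.24) for Psmb8, 0.04 (SE 0.11) for Psmb9, -0.08 (SE 0.19) for Psmb10, 0.16 (SE 0.10) for Psme1 and 0.00 (SE 0.23) for Psme2. Without CD4 library 3 it was 0.23, 0.14, 0.26, 0.22 and 0.44 for the same genes, and none was called. The median over all members was -0.14, and 0.14 without that library. Among companion genes, Tapbpl, which encodes a peptide editor, was higher in CD8 cells (0.87, SE 0.11, adjusted p = 6.02e-06), as was Irf1 (0.63, SE 0.13, adjusted p = 0.00226), and Nfe2l2 was lower (-0.66, SE 0.16, adjusted p = 0.00676).

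Treatment with iNKT cells was then compared with no treatment at day 7. No member was called for any of the 3 treatments in either lineage by edgeR or DESeq2. At an unadjusted p under 0.05 by edgeR there were 3, 2 and 1 of 49 members in CD8 cells with iNKT1, iNKT2 and iNKT17, and 0, 1 and 0 in CD4 cells. At that cut 1799, 1872 and 1972 of all 14586 genes passed in CD8 cells. In CD4 cells 1008, 1204 and 1170 of all 15031 genes passed it. Of all genes, 0.158%, 0.11% and 0.206% were called in CD8 cells and 0.0% in each CD4 comparison. The 3 comparisons of a lineage share the untreated libraries. The members' median log2 fold changes were -0.06, 0.02 and 0.04 in CD8 cells and -0.07, 0.13 and 0.04 in CD4 cells for iNKT1, iNKT2 and iNKT17. None of the companion genes was called. For iNKT1, iNKT2 and iNKT17, the 5 myeloid markers summed to 124 to 167, 155 to 184 and 104 to 131 CPM in CD8 cells. Untreated CD8 cells had 121 to 145 CPM. In CD4 cells the sums were 166 to 325, 91.9 to 213 and 96.8 to 170 CPM, against 95.2 to 158 CPM in untreated cells. The part of these sums in the treatment results was not tested.

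The members with the smallest p in CD8 cells were as follows. With iNKT17, Psmb10 was at 277, 305 and 326 CPM, against 269.9, 230.02 and 241 CPM in untreated cells (log2 fold change 0.30, SE 0.09, adjusted p = 0.171 by edgeR), and Psmb5 at 112, 129 and 113 CPM, against 110.2, 104 and 100.3 CPM in untreated cells (0.17, SE 0.08, adjusted p = 0.385). All iNKT17 libraries lay above all untreated ones for both genes. With iNKT2, Psmb4, a structural beta subunit gene, was at 149, 157 and 149.7 CPM, against 194, 202 and 161 CPM in untreated cells (-0.29, SE 0.09, adjusted p = 0.191), and Psmb7 at 86.3, 95.3 and 98.2 CPM, against 106, 120.3 and 98.9 CPM in untreated cells (-0.22, SE 0.10, adjusted p = 0.354). With iNKT1, Psmd9, a base assembly chaperone gene, was at 46.1, 52.3 and 47.5 CPM, against 64.7, 56.1 and 56.7 CPM in untreated cells (-0.28, SE 0.09, adjusted p = 0.218), and Psmf1 at 68.89, 85.38 and 74.27 CPM, against 114.17, 85.45 and 99.67 CPM in untreated cells (-0.39, SE 0.14, adjusted p = 0.265). For these 4 genes all treated libraries lay below all untreated ones, narrowly for Psmb7 and Psmf1. Of all 49 members, 3, 2 and 0 lay wholly below the untreated libraries with iNKT1, iNKT2 and iNKT17, and 0, 1 and 4 wholly above. The share over all genes is not given here, and the genes named were picked for their small p.

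Psmb8 in CD8 cells was at 590.4, 673 and 609 CPM with iNKT1, 826, 722 and 728 CPM with iNKT2 and 658, 730.2 and 837 CPM with iNKT17, against 799, 600.4 and 632 CPM in untreated cells, and every treated group overlapped the untreated one. The log2 fold changes with iNKT1, iNKT2 and iNKT17 were -0.12 (SE 0.13), 0.16 (SE 0.13) and 0.13 (SE 0.13) for Psmb8, -0.05 (SE 0.09), -0.01 (SE 0.09) and 0.08 (SE 0.09) for Psmb9, -0.01 (SE 0.07), 0.02 (SE 0.07) and 0.03 (SE 0.07) for Psme1 and 0.15 (SE 0.14), 0.23 (SE 0.14) and 0.26 (SE 0.14) for Psme2. The catalytic log2 ratio in CD8 cells was 1.24, 1.14 and 1.12 with iNKT1, 1.24, 1.33 and 1.199 with iNKT2 and 1.27, 1.201 and 1.26 with iNKT17, against 1.13, 1.13 and 1.17 in untreated cells. The iNKT2 and iNKT17 libraries lay above the untreated ones and the iNKT1 libraries overlapped them. In CD4 cells the ratio was 1.56, 1.43 and 1.49 with iNKT1, 1.59, 1.56 and 1.497 with iNKT2 and 1.66, 1.48 and 1.53 with iNKT17, against 1.30, 1.29 and 1.43 in untreated cells. There too the iNKT2 and iNKT17 libraries lay above the untreated ones and the iNKT1 libraries overlapped them, and no ratio was tested.

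In CD4 cells the summed member level was 9326, 9232 and 8664 CPM with iNKT1, 12372, 8462 and 10293 CPM with iNKT2 and 8775, 9104 and 11777 CPM with iNKT17, against 9677, 9474 and 9828 CPM in untreated cells. Psmb8 was at 620.2, 572 and 542 CPM with iNKT1, 1004, 545 and 739 CPM with iNKT2 and 597, 606 and 926 CPM with iNKT17, against 575, 569 and 696 CPM in untreated cells. Its highest values were in the libraries with the highest member sums. The members with the smallest p were Psme2b (0.46, SE 0.25, adjusted p = 0.813) and Psma6 (-0.27, SE 0.15, adjusted p = 0.83) with iNKT1, by edgeR. With iNKT2 they were Psmg1 (0.42, SE 0.19, adjusted p = 0.601) and Psmd13 (-0.29, SE 0.15, adjusted p = 0.671), and with iNKT17 Psma6 (-0.31, SE 0.15, adjusted p = 0.665) and Psmg1 (0.34, SE 0.19, adjusted p = 0.745). A test for any difference among the 3 treatments called no member in CD8 cells (1 at an unadjusted p under 0.05, Psmd3) or in CD4 cells (0 at that p), and 0.0% of all genes were called in CD8 cells and 0.0% in CD4 cells. At that unadjusted p there were 1288 of all 14586 genes in CD8 cells and 312 of all 15031 in CD4 cells.

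Sorted thymic iNKT sublineages were compared next, with 48 members tested (Psma8 and Psmb11 were below the filter). No member was called between sublineages by edgeR, with 1, 2 and 1 at an unadjusted p under 0.05 for iNKT2 over iNKT1, iNKT17 over iNKT1 and iNKT17 over iNKT2, and DESeq2 called 1, 3 and 1. Of all 12372 genes, 1.29%, 2.0% and 0.711% were called by edgeR, and the shares called by DESeq2 are not given here. At an unadjusted p under 0.05 there were 936, 1227 and 973 of these genes. The members' median log2 fold changes were 0.31, 0.19 and -0.08, beside 0.09, -0.03 and -0.09 over all genes. The common biological coefficient of variation was 1.29 in this table, against 0.196 in CD8 cells. The summed level of 5 myeloid markers was 11.7 to 48.6 CPM in iNKT17, 9.56 to 24.4 CPM in iNKT2 and 0 to 6.05 CPM in iNKT1, with Csf1r and Adgre1 at 0 in all 6 libraries. That of 5 thymic epithelial markers was 17.8 to 30.4 CPM in iNKT17, 0 CPM in both iNKT2 libraries and 0.0299 to 1.80 CPM in iNKT1, with 4 of the 5, Foxn1 among them, at 0 in iNKT17. The part of these lists in the results was not tested.

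Psmb8 had the smallest p. It was at 583 and 608 CPM in iNKT2, against 276 and 197 CPM in iNKT1 (log2 fold change 1.33, SE 0.30, adjusted p = 0.0837 by edgeR), and at 476 and 306 CPM in iNKT17 (0.73, SE 0.30, adjusted p = 0.436 over iNKT1, and 0.77, adjusted p = 0.0284 by DESeq2). Both iNKT2 libraries lay above both of each other sublineage, and both iNKT17 libraries above both iNKT1 libraries. For iNKT2 over iNKT1 it was called by DESeq2 (adjusted p = 1.77e-05), with no low-count filter (0.00328), with only the compared groups (0.0402), without iNKT1 library 1 (0.0434) and without iNKT2 library 1 (0.0426). Leaving out a library leaves its sublineage with 1, which is then assumed to vary like the other groups. Psme2 was at 42.6 and 6.20 CPM in iNKT17, 117 and 77.9 CPM in iNKT2 and 71.2 and 91.4 CPM in iNKT1 (-2.0, SE 0.85, adjusted p = 0.613 over iNKT2 and -1.73, SE 0.85, adjusted p = 0.555 over iNKT1). Both iNKT17 libraries were the lowest. Without iNKT17 library 1 these log2 fold changes were -3.97 and -3.70, on 1 iNKT17 library and the spread of the other groups. The split of reads between Psme2 and its copy Psme2b is uncertain. Their summed level was 268 and 155 CPM in iNKT17, 345 and 299 CPM in iNKT2 and 229 and 279 CPM in iNKT1. For this sum iNKT17 overlapped iNKT1.

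Psmb9 was at 105 and 139 CPM in iNKT17, 142 and 200.2 CPM in iNKT2 and 83.0 and 125 CPM in iNKT1, and Psmb10 at 92.4 and 205 CPM in iNKT17, 102 and 215 CPM in iNKT2 and 138 and 175 CPM in iNKT1. The 3 sublineages overlapped for Psmb10. Psme1 was at 294 and 327 CPM in iNKT17, 238 and 372 CPM in iNKT2 and 237 and 148 CPM in iNKT1. Psmb5 was at 43.17 and 17.02 CPM in iNKT17, 10.66 and 23.65 CPM in iNKT2 and 14.63 and 0.03 CPM in iNKT1, where library 2 was almost without counts. Psmb6 was at 114 and 27.6 CPM in iNKT17, 89.9 and 87.2 CPM in iNKT2 and 61.2 and 68.6 CPM in iNKT1. Psmb7 was at 65.8 and 45.1 CPM in iNKT17, 97.96 and 69.0 CPM in iNKT2 and 66.5 and 92.1 CPM in iNKT1. Psmb2, a structural beta subunit gene, was at 125 and 182 CPM in iNKT17 and 76.0 and 58.9 CPM in iNKT1 (1.19, SE 0.45, adjusted p = 0.384 by edgeR), and DESeq2 called it (adjusted p = 0.00883).

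The catalytic log2 ratio was 1.60 and 2.86 in iNKT17, 2.06 and 2.51 in iNKT2 and 1.80 and 1.63 in iNKT1, so that iNKT2 lay above iNKT1 and iNKT17 overlapped both. Several members were near 0 in 1 library and detected in its partner. The alpha ring gene Psma3 was at 0.41 and 40.82 CPM in iNKT2, and the chaperone gene Psmg4 at 15.79 and 0.00 CPM in iNKT17, 0.00 and 8.29 CPM in iNKT2 and 10.70 and 15.30 CPM in iNKT1. Psmg3, a chaperone gene and the member with the lowest fold changes of iNKT17 over both others, was near 0 in both iNKT17 libraries, at 0.00 and 0.04 CPM, against 6.03 and 11.74 CPM in iNKT2 and 7.79 and 16.29 CPM in iNKT1 (adjusted p = 0.698 over iNKT2 and 0.571 over iNKT1 by edgeR). It was below both other sublineages, was not called, and was singled out after its values were seen. Psme2b was at 225 and 149 CPM in iNKT17, 228 and 221 CPM in iNKT2 and 158 and 187 CPM in iNKT1. Psme2 made up 3.998% to 15.9% of the summed Psme2 and Psme2b CPM in iNKT17, 26.0% to 34.0% in iNKT2 and 31.1% to 32.8% in iNKT1. The iNKT and donor tables came from different library kits and were scaled apart, and no level is compared between them. Among companion genes, the class I genes H2-D1 (-0.88, SE 0.15, adjusted p = 0.0122 by edgeR) and H2-K1 (-0.95, SE 0.19, adjusted p = 0.0384) were lower in iNKT17 than in iNKT1, 2 of 14 antigen processing genes. None of 20 regulation and ubiquitin genes was called between sublineages. For iNKT17 over iNKT1, 2.0% of all genes were called.

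**Figure D4:**
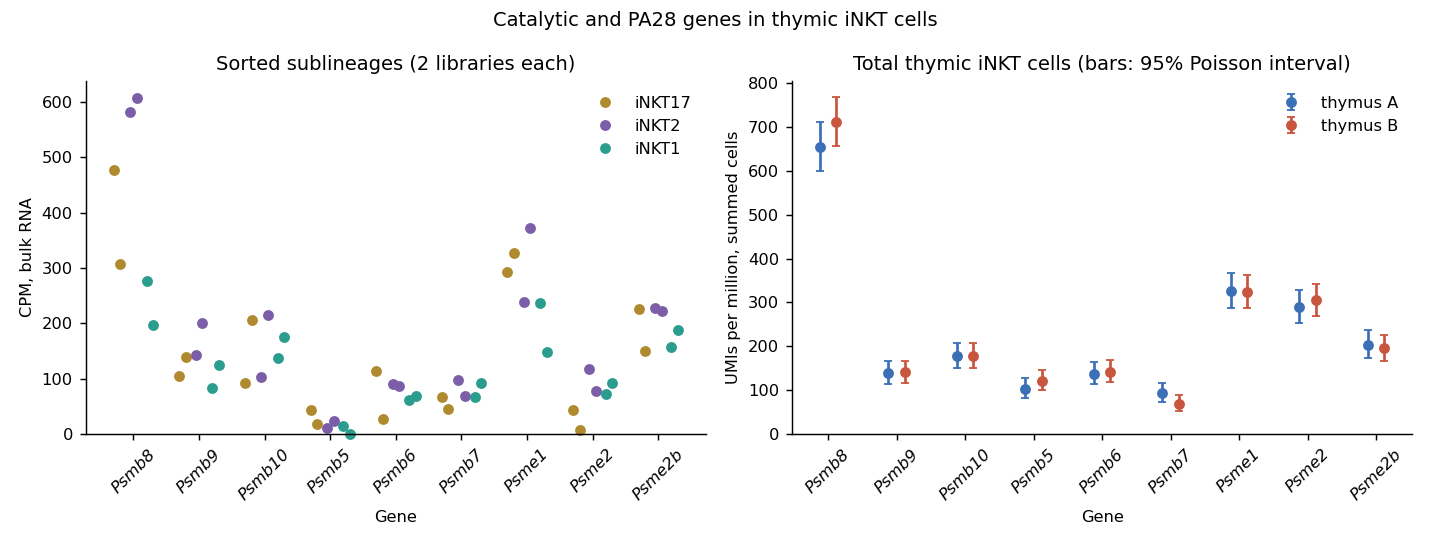
Left, CPM of catalytic and PA28 genes and Psme2b in the 2 bulk RNA libraries of each sorted thymic iNKT sublineage. Right, UMI CPM of the same genes over the single iNKT cells of thymus A and thymus B, with 95% exact Poisson intervals, which overlap between the thymi for each gene shown.

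Single cells of total thymic iNKT cells gave the members' levels in another assay, without sublineage groups and so without a test. After filtering, 138 cells of thymus A (825760 UMIs, median 5310 per cell) and 144 cells of thymus B (893603 UMIs, median 5818) were kept, with 0 barcodes shared. In thymus A and thymus B, 0 and 0 UMIs were of B and plasma cell markers, 0 and 1 of erythroid, 1 and 0 of immature thymocyte, 10 and 2 of myeloid (all of 1 gene, with Lyz2 and Csf1r at 0) and 3 and 1 of thymic epithelial markers (all of 1 gene, with Foxn1 at 0), against 1212 and 1287 of T cell markers. All members together had 4886 UMI CPM in thymus A and 5064 in thymus B. Psmb8 had 654 (599.9 to 712) UMI CPM in thymus A and 712 (657 to 769) in thymus B, with 95% exact Poisson intervals, which cover counting error only. Psmb9 had 138 in thymus A and 139.9 in thymus B, and Psmb10 177 in thymus A and 177 in thymus B. Psmb5 had 103 (82.2 to 127) UMI CPM in thymus A and 121 (99.1 to 146) in thymus B. Psme1 had 326 (288 to 367) in thymus A and 323 (287 to 363) in thymus B, and Psme2 288 (253 to 327) in thymus A and 304 (269 to 343) in thymus B. Psme2b had 203 (174 to 237) in thymus A and 195 (167 to 226) in thymus B. Psmb11 had 0 UMIs in both thymi, which allows up to 4.47 UMI CPM in thymus A and 4.13 in thymus B at the upper bound.

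Open chromatin at the members was compared between the same sublineages. Of 54524 regions in the deposited table, 85 lay within 2000 bases of a member gene, at 48 members, and 41 of these overlapped the promoter window of 39 members. A region may also belong to a neighbouring gene. In iNKT2 over iNKT1, 11 of the 85 regions were more open and 18 less open (edgeR, adjusted p under 0.05), beside 22.3% higher and 16.3% lower of all 54520 regions tested. In iNKT17 over iNKT1, 8 were more open and 9 less open, beside 23.5% and 13.6% of all. In iNKT17 over iNKT2, 2 were more open and none less open, beside 5.11% and 3.24%. The shares of all regions belong to the edgeR fit with TMM scaling and all libraries, and are not given here for the alternatives that follow. DESeq2 called 10 more open and 27 less open in iNKT2 over iNKT1, and 8 more open and 19 less open in iNKT17 over iNKT1. With size factors as in DESeq2, edgeR called 9 more open and 22 less open in iNKT2 over iNKT1, and 8 and 12 in iNKT17 over iNKT1. The counts rested on single libraries. For iNKT2 over iNKT1 they were 9 more and 7 less open without iNKT1 library 1, 5 more and 1 less open without iNKT1 library 2, 6 more and 0 less open without iNKT2 library 1 and 8 more and 14 less open without iNKT2 library 2. For iNKT17 over iNKT1 they were 7 more and 3 less open without iNKT1 library 1, 5 more and 2 less open without iNKT1 library 2, 6 more and 3 less open on leaving out the first iNKT17 library and 7 more and 6 less open on leaving out the second. For iNKT17 over iNKT2, 0 regions were called without iNKT17 library 2, 0 without iNKT2 library 2 and 1 without iNKT2 library 1. Each of these fits has 1 library in a sublineage, which is assumed to vary like the others.

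Of the 41 start regions, none was more open in iNKT2 than in iNKT1 and 11 were less open (median log2 fold change -0.39), and none was more open in iNKT17 than in iNKT1 and 5 were less open (median -0.35). Those calls rested on single libraries. In iNKT2 over iNKT1, 4 start regions were less open without iNKT1 library 1, 0 without iNKT1 library 2, 0 without iNKT2 library 1 and 8 without iNKT2 library 2, with medians of -0.40 to -0.33. In iNKT17 over iNKT1, 1 were less open without iNKT1 library 1, 1 without iNKT1 library 2, 2 on leaving out the first iNKT17 library and 3 on leaving out the second, with medians of -0.35 to -0.33. None was more open in any of these fits. Among 10366 start regions of all genes, 8.61% were more and 28.7% less open in iNKT2 over iNKT1 (median -0.35), and 8.01% and 17.7% in iNKT17 over iNKT1 (median -0.30). The Psmd13 start region (chr7:140881609-140882662), which holds the window printed above, had 43.0 and 38.4 CPM in iNKT17, 40.6 and 40.4 CPM in iNKT2 and 67.2 and 57.6 CPM in iNKT1 (-0.62, SE 0.18, adjusted p = 0.0228 for iNKT17 and -0.62, SE 0.18, adjusted p = 0.022 for iNKT2, over iNKT1). The Psma6 start region (chr12:55398270-55399285) had 31.6 and 40.9 CPM in iNKT17, 29.9 and 38.9 CPM in iNKT2 and 56.8 and 74.7 CPM in iNKT1 (-0.86, SE 0.23, adjusted p = 0.0161 for iNKT17 and -0.93, SE 0.23, adjusted p = 0.0117 for iNKT2, over iNKT1). At both start regions every iNKT17 and iNKT2 library lay below every iNKT1 library, while regions of Psma6 away from its start, given below, were more open. For Psmd13 the iNKT2 call was lost on leaving out any 1 of the 4 libraries (adjusted p 0.0662 to 0.146) and the iNKT17 call without iNKT1 library 1 or iNKT17 library 2 (adjusted p 0.111 to 0.158). For Psma6 the iNKT2 call was lost without iNKT1 library 2 or iNKT2 library 1 (adjusted p 0.0759 to 0.0931) and the iNKT17 call without iNKT1 library 2 or iNKT17 library 1 (adjusted p 0.0656 to 0.1).

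At the 5 immunoproteasome and PA28 genes, no start region was called in iNKT2 over iNKT1 (median 0.11), and 1, at Psme2 (chr14:55590851-55591884), was less open in iNKT17 than in iNKT1 (-0.56, SE 0.18, adjusted p = 0.0371). The Psmb8 start region (chr17:34197956-34198450) had 18.1 and 14.01 CPM in iNKT17, 20.0 and 20.9 CPM in iNKT2 and 16.2 and 13.5 CPM in iNKT1 (0.46, SE 0.23, adjusted p = 0.143 for iNKT2 over iNKT1). A region 5431 bases downstream of the Psmb8 start and past the end of the gene (chr17:34203353-34203900) had 24.1 and 21.8 CPM in iNKT2, against 16.4 and 11.6 CPM in iNKT1 (0.72, SE 0.24, adjusted p = 0.0441), and was more open in iNKT2. It was assigned to Psmb8 by distance alone and may belong to a neighbouring gene. The Psmb9 start region (chr17:34186938-34187942) had 82.5 and 62.2 CPM in iNKT17, 83.1 and 77.3 CPM in iNKT2 and 80.2 and 68.2 CPM in iNKT1. A region inside Psmb10 (chr8:105936855-105937346), centred 1292 bases past its start, had 7.15 and 6.38 CPM in iNKT17, 8.24 and 9.53 CPM in iNKT2 and 18.3 and 18.0 CPM in iNKT1 (-1.43, SE 0.23, adjusted p = 0.00141 for iNKT17 and -1.03, SE 0.23, adjusted p = 0.00794 for iNKT2, over iNKT1). A region inside Psme2 (chr14:55589988-55590377) was more open in iNKT17 (0.72, SE 0.21, adjusted p = 0.0249) and in iNKT2 (0.87, SE 0.21, adjusted p = 0.0116) than in iNKT1. Of these calls, that at the Psme2 start was lost on leaving out any 1 of the 4 libraries (adjusted p 0.0606 to 0.174), and that downstream of Psmb8 without iNKT1 library 2 or either iNKT2 library (adjusted p 0.0779 to 0.292) and with size factors as in DESeq2 (adjusted p = 0.0501). The iNKT2 call inside Psmb10 was lost without iNKT2 library 1 (adjusted p = 0.0619) and the iNKT17 call was kept in each such fit. Inside Psme2, the iNKT17 call was lost without iNKT1 library 2 or iNKT17 library 1 (adjusted p 0.103 to 0.245) and the iNKT2 call without iNKT1 library 2 (adjusted p = 0.111).

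**Figure D5:**
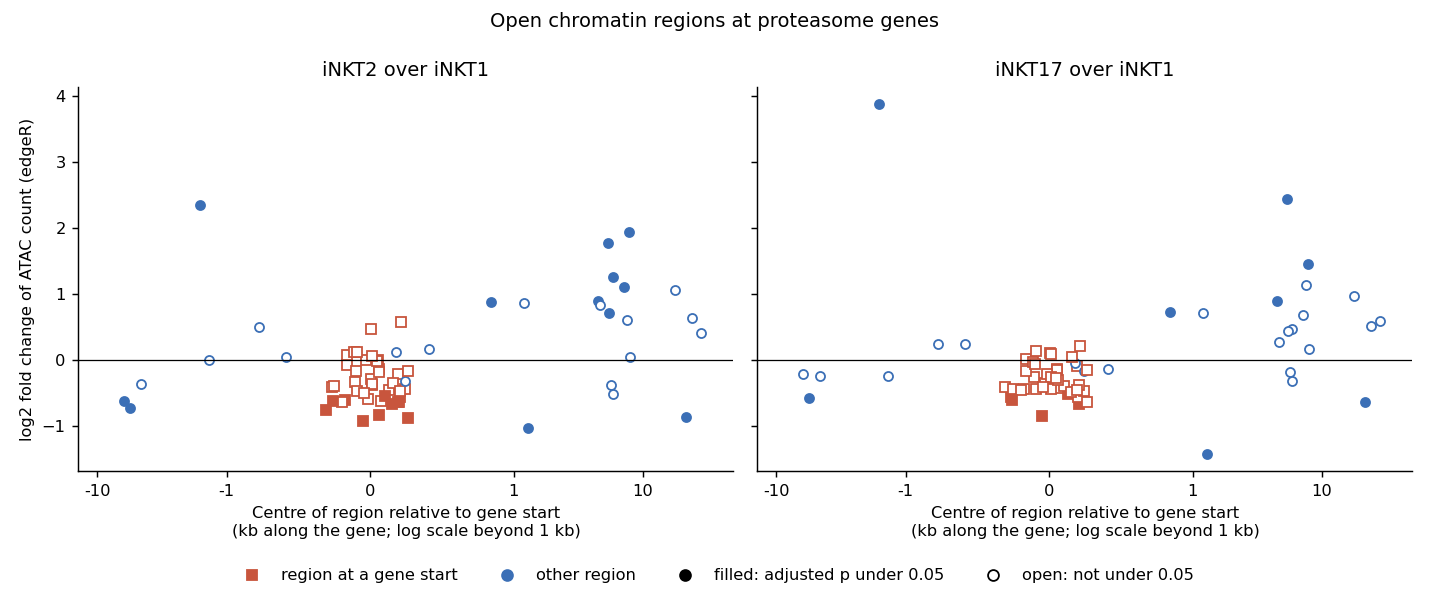
Log2 fold change of ATAC counts against the distance of a region's centre from the start of the member gene, for iNKT2 over iNKT1 (left) and iNKT17 over iNKT1 (right). Squares are start regions and circles are other regions, filled where the adjusted p was under 0.05, for the 69 of 85 regions at members with an annotated start window. No filled square lies above 0, and the highest circle in each panel is the region upstream of Psmc6; Psmb7, without such a window, is not plotted.

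The highest fold changes over iNKT1 lay away from the starts. The highest was inside Psmb7, where the region chr2:38621824-38622184 had 7.86 and 9.80 CPM in iNKT17, 2.46 and 2.91 CPM in iNKT2 and 0.560 and 0.132 CPM in iNKT1 (4.54, SE 0.53, adjusted p = 2.80e-04 for iNKT17 and 2.82, SE 0.53, adjusted p = 0.00348 for iNKT2, over iNKT1, by edgeR). The region centred at -1595 bases from the start of the ATPase gene Psmc6 (chr14:45328058-45328400) had 20.7 and 37.5 CPM in iNKT17, 8.60 and 11.7 CPM in iNKT2 and 2.04 and 1.94 CPM in iNKT1. Its log2 fold change was 3.87, SE 0.35, adjusted p = 1.01e-04 for iNKT17 over iNKT1, 2.35, SE 0.34, adjusted p = 0.00102 for iNKT2 over iNKT1 and 1.52, SE 0.32, adjusted p = 0.0204 for iNKT17 over iNKT2 by edgeR. The sublineages did not overlap, with iNKT17 highest and iNKT1 lowest. A second region inside Psmb7, chr2:38623533-38623936, had 6.59 and 10.1 CPM in iNKT17, 2.71 and 1.34 CPM in iNKT2 and 0.633 and 0.264 CPM in iNKT1 (4.14, SE 0.53, adjusted p = 4.31e-04 for iNKT17 over iNKT1 and 2.02, SE 0.48, adjusted p = 0.0336 for iNKT17 over iNKT2). Inside Psmd9, the region chr5:123235609-123236377 had 12.6 and 9.63 CPM in iNKT17, 17.5 and 13.8 CPM in iNKT2 and 4.72 and 3.39 CPM in iNKT1 (1.45, SE 0.28, adjusted p = 0.00376 for iNKT17 and 1.94, SE 0.29, adjusted p = 0.00121 for iNKT2, over iNKT1). The calls of these 4 regions over iNKT1 were kept on leaving out any 1 library, except that of iNKT2 at the second Psmb7 region (2.12, SE 0.53, adjusted p = 0.0126 with all, and adjusted p 0.0526 to 0.104 without iNKT1 library 2 or iNKT2 library 1), while both calls of iNKT17 over iNKT2 were lost in some of these fits, at Psmc6 (adjusted p 0.0527 to 0.123) and at Psmb7 (adjusted p 0.16 to 0.208). RNA of these genes was not called: Psmc6 was at 66.7 and 123 CPM in iNKT17, 80.8 and 100.05 CPM in iNKT2 and 89.7 and 33.7 CPM in iNKT1, with overlapping sublineages. Other regions at Psmc6 were less open than in iNKT1. At its start (chr14:45329383-45329922) iNKT2 was called (-0.62, SE 0.19, adjusted p = 0.0309 by edgeR) and iNKT17 was not (-0.44, SE 0.19, adjusted p = 0.0969). At chr14:45350776-45351821 both were called (-0.86, SE 0.20, adjusted p = 0.00925 for iNKT2 and -0.64, SE 0.20, adjusted p = 0.0321 for iNKT17). At Psma6, regions away from the start were more open in iNKT17 and in iNKT2 than in iNKT1. These were chr12:55389297-55389836 (2.44, SE 0.35, adjusted p = 7.64e-04 and 1.77, SE 0.35, adjusted p = 0.00453 by edgeR) and chr12:55388487-55388985 (0.90, SE 0.25, adjusted p = 0.0203 and 0.89, SE 0.25, adjusted p = 0.0219). For these further regions of Psmc6 and Psma6, fits without 1 library are not given here. Regions other than those at the immunoproteasome and PA28 genes were named after their values were seen. Coordinates are those of the deposited table, and whether they count from 0 or 1 is not stated.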

How the data were processed

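Deposited raw counts per gene (bulk RNA) and per region (ATAC-seq) and deposited UMI counts per gene and barcode (single cells) were used; per the submitters' processing notes, STAR 2.5.4, Bowtie2, MACS2, kallisto, Cell Ranger 2.1 and others were run on GRCm38 or mm10, without saying which tool made which table. The authors' counts were not altered. Symbols came from the gene list of the single-cell data. Members and gene lists were chosen with earlier results of these data known. Per table, edgeR 4.0.16 in R 4.3.3 was fitted over all groups (filterByExpr, TMM, robust quasi-likelihood F test), with Benjamini-Hochberg adjustment over all features and a threshold of 0.05. The script was first tested on simulated data. Library identity within a donor group rests on column names, and 3 CD8 day 0 columns that share a name were numbered in column order. Experiment names in the labels could be tied to columns by order alone, so no experiment term was fitted.

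Named genes were the 5 immunoproteasome and PA28 genes, Psmb5, Psmb6 and Psmb7, up to 6 called members per direction with the smallest p (2 where none was called), members of low level or odd symbol, chaperones and regulators where their role is described, and up to 4 called genes of a companion list. Exceptions are stated beside their values. Single cells had at least 1000 UMIs, 500 genes and at most 10% mitochondrial UMIs; no doublet caller was run and no clusters were made. Regions within 2000 bases of a member were assigned to it, leaving out those wider than 10000 bases. Of 32851 start windows, 12966 held a region and 1126 did when shifted by 50000 bases, a check of the build. Alternatives were DESeq2 1.42.0, its size factors in edgeR, no low-count filter, only the compared groups, each library left out, and a replicate block. Sequence windows are from RefSeq; Psmb7, Psmb2, Psmb1, Psmc3, Psmd3, Psmd7, Psma8 and Psmg2 had no entry. Further iNKT1 libraries split by CD4 were not analysed here.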

Additional observations from a re-analysis of the deposited data

How the results depend on the processing

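Of 784 alternatives to 75 values of single members, 714 kept direction and side of the threshold, 9 lost the call, 21 gained one and 40 turned in sign, of 21 values, 0 of them called with either sign. For iNKT2 over iNKT1 RNA, 1 member was called by DESeq2, 1 with no low-count filter and 1 with only the compared groups, beside 0; DESeq2 called 3 for iNKT17 over iNKT1 and 1 for iNKT17 over iNKT2, beside 0 each. The cause was not tested. For ATAC in iNKT17 over iNKT1, DESeq2 called 27 regions, beside 17. For the day 7 change, CD8 minus CD4, DESeq2 called 2 members, beside 0. Leaving out 1 library at a time gave 0 to 1, 0 to 1 and 0 to 2 called members in the iNKT RNA comparisons of iNKT2 over iNKT1, iNKT17 over iNKT1 and iNKT17 over iNKT2, and 6 to 22, 7 to 13 and 0 to 2 called regions in the same ATAC comparisons. It gave 39 to 43 members for CD8 day 7 over day 0, 11 to 30 for CD4, 0 to 8 for their difference, and 0 in every treatment comparison and between the lineages at day 0. Members near 0 in single libraries limit what the iNKT RNA can show. Shares of all features called are given for the edgeR fits with all libraries only, not for these alternatives.

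Turns in sign came mostly on leaving out 1 library at a time, and their cause was not tested. For iNKT2 over iNKT1 RNA these fits gave log2 fold changes of -0.59 to 0.45 for Psmb10, -0.21 to 0.34 for Psmb7 and -0.0707 to 0.55 for Psme2. For iNKT17 over iNKT1 RNA these fits gave -0.75 to 0.41 for Psmb10, -1.22 to 0.82 for Psmb6 and -0.0438 to 0.59 for Psmb9. For iNKT17 over iNKT2 RNA these fits gave -0.77 to 0.53 for Psmb10, -1.67 to 0.37 for Psmb6 and -0.24 to 0.38 for Psme1. For CD4 day 7 over day 0 these fits gave -0.49 to 0.69 for Psmb6. For the day 7 change, CD8 minus CD4 these fits gave -0.0693 to 0.41 for Psmb10, -0.0352 to 0.60 for Psmb8 and -0.40 to 0.22 for Psme2. For CD8 over CD4 at day 0 these fits gave -0.22 to 0.26 for Psmb10, -0.20 to 0.14 for Psmb5, -0.95 to 0.23 for Psmb6, -0.41 to 0.23 for Psmb8, -0.0529 to 0.14 for Psmb9, -0.71 to 0.0958 for Psmd4 and -0.18 to 0.44 for Psme2. Psmb10 in iNKT2 over iNKT1 RNA was at -0.0112 with size factors as in DESeq2, -0.0125 by DESeq2, -0.0268 with no low-count filter, -0.0193 with only the compared groups and -0.0826 with the replicate block. Psmb6 in iNKT17 over iNKT1 RNA was at -0.089 with the replicate block, and Psme1 in CD8 day 7 over day 0 at -0.0044 with size factors as in DESeq2.

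With the replicate block, 51 (17 more and 34 less open), 47 (13 and 34) and 6 (5 and 1) ATAC regions were called for iNKT2 over iNKT1, iNKT17 over iNKT1 and iNKT17 over iNKT2, beside 29, 17 and 2, and 0 members in each RNA comparison. Deviations of same-numbered libraries correlated at 0.671, 0.526 and 0.528 in ATAC and at -0.059, 0.05 and -0.024 in RNA, with only 2 numbers and no label that ties them. For donor T cells no replicate block was fitted: column numbers are not tied to the titles' numbers or experiments, and the 3 CD8 day 0 columns share 1 number.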
